A study of Mus musculus with 4 samples.

Results

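Tyrobp, Fcer1g, Hcst and Sh2d1b1 encode small adaptors through which activating receptors of NK cells and innate-like T cells signal. They were followed here as 4 of the 27998 genes counted by single-cell RNA sequencing of UTCαβ, the CD4- CD8- αβ T cells outside the conventional lineages, sorted from 3-MCA-induced sarcomas of mice. All 4 genes were listed and detected in both deposited tables. They were read in 19522 cells out of 32525 barcodes, namely those with at least 1 UMI of Cd3e, at least 200 genes, at most 20000 UMIs, at most 10% mitochondrial UMIs and no UMI of the macrophage genes C1qa, C1qb or Lyz2. The cells came from 2 libraries of Csf3r+/+ mice (2780 and 6119 cells) and 2 libraries of Csf3r-/- mice (4968 and 5655 cells), and values below are given in that order. Both groups were on a C57BL/6J background and both received the carcinogen 3-methylcholanthrene. Csf3r-/- mice lack the G-CSF receptor in all their cells and are neutropenic, so the genotype also marks the absence of neutrophils from the tumor. The labels describe 2 biological replicates per genotype and give no age for the animals. The number behind a barcode separated the libraries but was tied to no animal by the labels, so "library 1" and "library 2" are only names.

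Tyrobp encodes DAP12 and Fcer1g encodes the Fc receptor γ chain, short transmembrane proteins with an immunoreceptor tyrosine-based activation motif (ITAM), whose phosphorylated tyrosines recruit the kinases Syk and Zap70. Activating Ly49 receptors and the CD94/NKG2C complex pair with DAP12, while NKp46 (Ncr1), NK1.1 (Klrb1c) and CD16 (Fcgr3) pair with the γ chain. Hcst encodes DAP10, which carries no ITAM but a shorter motif that binds phosphoinositide 3-kinase, and which pairs with NKG2D (Klrk1). Sh2d1b1 encodes EAT-2, a cytosolic SH2 domain protein that binds the tails of SLAM family receptors such as Cd244 and Slamf7. The 4 genes therefore share a role in receptor signalling, and only Tyrobp and Fcer1g encode ITAM proteins.

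The coding letters of these motifs, read 5′ to 3′ from GENCODE vM21 transcripts, are shown because they set the ITAM genes apart from Hcst. Capitals mark each tyrosine codon and the codon 3 places after it, which in the ITAM encodes leucine and in Hcst encodes methionine.
Tyrobp: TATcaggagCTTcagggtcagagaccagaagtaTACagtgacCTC
Fcer1g: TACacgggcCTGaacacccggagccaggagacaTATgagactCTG
Hcst: TACatcaacATG
The stretch spanned 15 codons in Tyrobp, starting at codon 92 of 114, and 15 codons in Fcer1g, starting at codon 65 of 86. The 2 tyrosine codons thus stood equally far apart in both genes, whereas Hcst held a single tyrosine codon of this kind, in a stretch of 4 codons starting at codon 72 of 79.

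Tyrobp and Hcst are direct neighbours. In GRCm38 (mm10), Tyrobp (ENSMUSG00000030579) lies at chr7:30413760-30417585 on the plus strand and Hcst (ENSMUSG00000064109) at chr7:30417712-30419854 on the minus strand, with 126 bases between their 3′ ends. Fcer1g (ENSMUSG00000058715) lies at chr1:171229572-171234365 on the minus strand. Sh2d1b1 (ENSMUSG00000102418) lies at chr1:170277320-170286769 on the plus strand, 23711 bases from its near copy Sh2d1b2. Sh2d1b2 had 6, 2, 0 and 0 UMIs in the kept cells. Reads that match both copies were not counted here, so the low counts of Sh2d1b1 are uncertain.

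The libraries held 9566283, 22093377, 13335724 and 12985042 UMIs in the kept cells, with medians of 3048, 2994, 2221 and 1958 UMIs per cell. Csf3r+/+ cells were therefore deeper than Csf3r-/- cells, and shares of cells with a UMI were taken in 17952 cells downsampled (thinned) to 1500 UMIs apiece. Levels are UMIs per 1000000 UMIs of the same cells (CPM). The T cell receptor chain genes Cd3d and Cd3g stood at 1039 to 1181 CPM and 1395 to 2483 CPM over the libraries. Csf3r itself had 0, 0, 1 and 0 UMIs in the kept cells, too few to check the genotype labels. Pairs of libraries shared 16 to 45 kept barcodes, at most 0.899% of the smaller library.

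Tyrobp, Fcer1g and Sh2d1b1 had lower values in both Csf3r-/- libraries than in either Csf3r+/+ library, and Hcst had higher values. Tyrobp stood at 169 and 99.1 CPM in Csf3r+/+ and at 70.4 and 55.7 CPM in Csf3r-/- cells. Fcer1g stood at 578 and 484 CPM against 205 and 160 CPM. How many of all genes had no overlap between the 2 genotypes was not counted, so this separation cannot be read as a particular trait of these genes. Relative to their level, the 2 Csf3r+/+ libraries were further apart for Tyrobp than for Fcer1g. Hcst stood at 657 and 625 CPM in Csf3r+/+ and at 727 and 807 CPM in Csf3r-/- cells. Sh2d1b1 rested on 125, 54, 28 and 22 UMIs, or 13.1, 2.44, 2.1 and 1.69 CPM, so that Csf3r+/+ library 1 alone stood apart and the other 3 libraries lay close together.

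**Figure D1:**
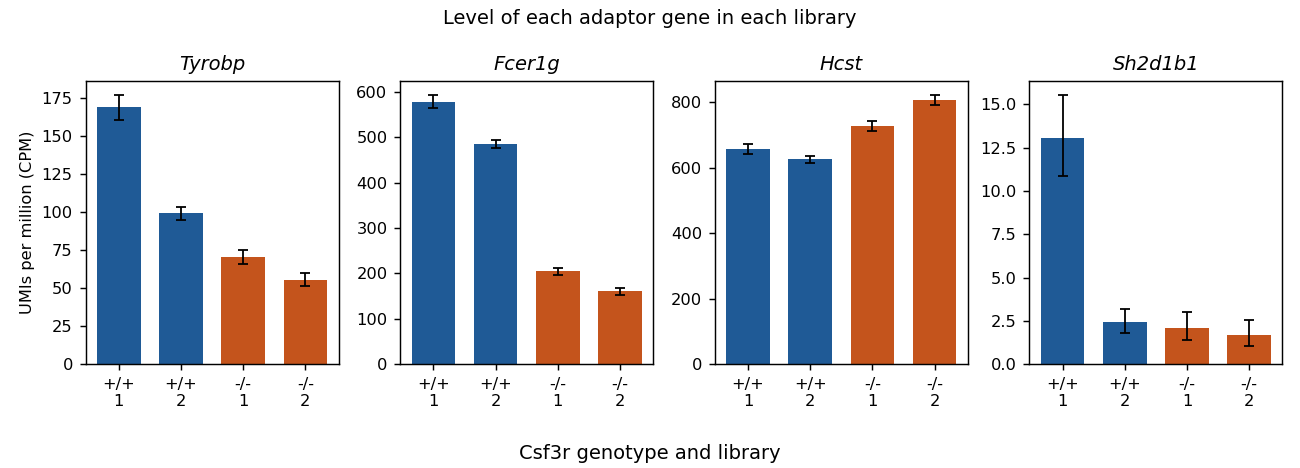
Level of each gene in CPM (1 linear axis per gene) in the 2 Csf3r+/+ libraries (blue) and the 2 Csf3r-/- libraries (orange), with exact Poisson 95% intervals that cover counting error only. Fcer1g fell into 2 separate levels, 484 to 578 CPM against 160 to 205 CPM, while the high value of Sh2d1b1 belonged to 1 library.

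None of the 4 genes passed the threshold of an adjusted p of 0.05 in the test across libraries (edgeR quasi-likelihood, Benjamini-Hochberg over 11239 genes), in which 0% of all genes were called. Of those genes, 1685 had an unadjusted p under 0.05, and DESeq2 called 640. The log2 fold change of Fcer1g in Csf3r-/- against Csf3r+/+ was -1.64 (SE 0.20, adjusted p = 0.0659) and that of Tyrobp -1.17 (SE 0.27, adjusted p = 0.155). Hcst had a log2 fold change of 0.16 (SE 0.20, adjusted p = 0.769) and Sh2d1b1 one of -2.04 (SE 0.79, adjusted p = 0.334). The calls of the ITAM genes depended on the tool. DESeq2 gave an adjusted p of 4.41e-08 for Fcer1g and of 0.0132 for Tyrobp, with fold changes of the same size. Without Csf3r+/+ library 1, Fcer1g passed in edgeR (log2 fold change -1.59, adjusted p = 0.0187). In bulk sums of this kind, fewer cells that use a gene cannot be told apart from less RNA per cell, and the shares of cells below bear on that.

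After thinning, Tyrobp had a UMI in 11.2% and 9.70% of Csf3r+/+ cells and in 5.16% and 4.72% of Csf3r-/- cells. Fcer1g had one in 26.8% and 37.5% of Csf3r+/+ cells and in 12.9% and 11.3% of Csf3r-/- cells. Csf3r+/+ library 2 thus had the larger share of Fcer1g-positive cells but the lower Fcer1g level, so its positive cells held fewer UMIs each. For Hcst the shares were 60.8%, 59.9%, 64.0% and 68.3%, and for Sh2d1b1 they were 1.55%, 0.334%, 0.248% and 0.208%. Without thinning, the shares were 16.5%, 17.0%, 7.25% and 6.42% for Tyrobp and 33.1%, 52.3%, 15.7% and 13.6% for Fcer1g. An exact two-sided permutation test of 2 against 2 libraries gave p = 0.333 for each share, the smallest p this design allows.

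B cells use none of the NK receptors, so barcodes with B cell genes were read as a possible background for these shares. In 93 thinned B cell barcodes (median of 1664 UMIs before thinning, against 2461 in kept cells), Tyrobp had a UMI in 6.45% (exact binomial 95% interval 2.40% to 13.5%), Fcer1g in 8.60% (3.79% to 16.2%) and Hcst in 22.6% (14.6% to 32.4%). The shares of Tyrobp in both Csf3r-/- libraries were below the background value, and those in both Csf3r+/+ libraries lay inside its interval, as did the Csf3r-/- shares of Fcer1g. Over whole libraries, these shares thus lay inside the intervals of the B cell barcodes, whereas the Csf3r+/+ shares of Fcer1g and all shares of Hcst lay above them. Klra UMIs were also found in 9.68% of these barcodes, which therefore held some RNA of other cells or doublets. A single barcode held 6 of their 11 Tyrobp UMIs, so they are no clean background. T cells with no NK receptor gene, described further below, had less Tyrobp and Fcer1g than the B cell barcodes. Their shares, 0.552% to 2.22% for Tyrobp and 1.5% to 5.66% for Fcer1g, were also below those of each whole library.

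The Ly49 receptors, encoded by the Klra genes, are mostly inhibitory in this mouse strain, and the activating ones need DAP12. Cells with at least 1 UMI of any of the 11 Klra genes made up 41.9%, 73.2%, 18.2% and 19.2% of the libraries. Tyrobp stood at 332, 116, 257 and 163 CPM in Klra-positive cells and at 23.1, 29.7, 9.06 and 19.9 CPM in Klra-negative cells of the same libraries. Fcer1g stood at 1148, 564, 733 and 529.6 CPM against 70.0, 166, 31.8 and 37.2 CPM. The lowest Klra-positive value exceeded the highest Klra-negative value for both genes. In Klra-positive cells the genotypes overlapped, with Csf3r+/+ library 1 highest and Csf3r+/+ library 2 lowest for Tyrobp.

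**Figure D2:**
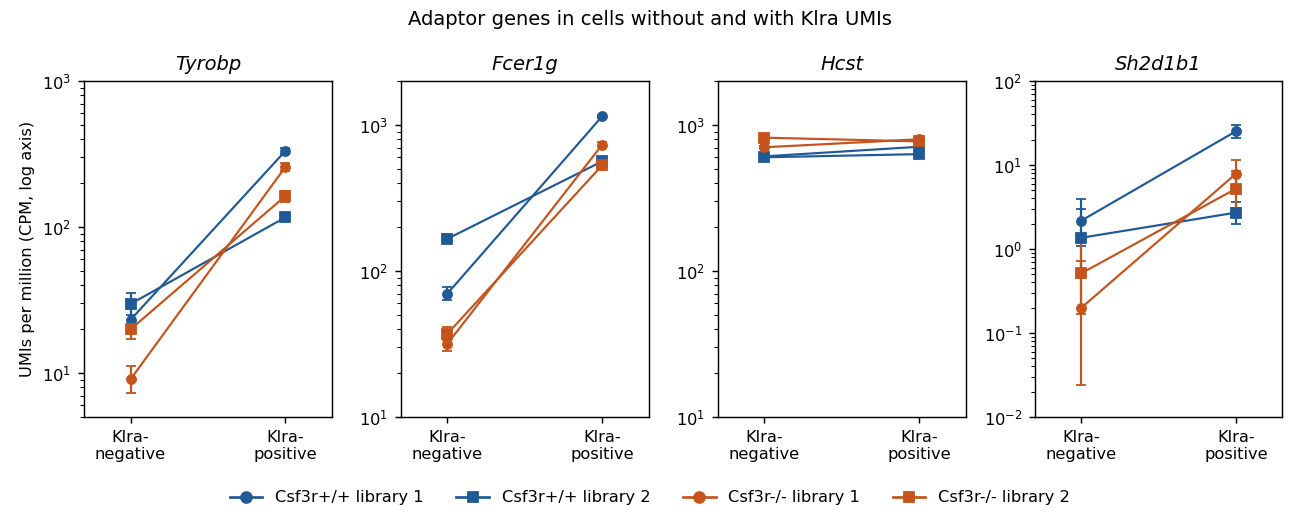
Level in CPM (log axes, 1 per gene) in Klra-negative and Klra-positive cells of each library, joined by a line, with exact Poisson 95% intervals for counting error. Tyrobp and Fcer1g rose steeply in all 4 libraries and the lines of the genotypes met among Klra-positive cells, whereas the lines of Hcst were nearly flat.

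Tyrobp and Fcer1g were higher in Klra-positive cells (edgeR with the library as a block), by a log2 fold change of 3.52 (SE 0.40, adjusted p = 0.00316) and 3.68 (SE 0.44, adjusted p = 0.00333). Sh2d1b1 was higher as well, at 3.46 (SE 0.48, adjusted p = 0.00523), with 25.3, 2.71, 7.89 and 5.23 CPM against 2.18, 1.36, 0.199 and 0.514 CPM. These levels rested on 114, 48, 26 and 17 UMIs in Klra-positive and on 11, 6, 2 and 5 UMIs in Klra-negative cells. Sh2d1b1 can thus pass the filter on low counts through Klra-positive cells alone, and its call is a description only. Tyrobp, Fcer1g and Sh2d1b1, 3 of 4 members, stand beside 9.75% of 10410 genes called higher and 19.4% called in either direction. Hcst differed by 0.22 (SE 0.07) with an adjusted p of 0.066. It stood at 709, 632, 798 and 772 CPM in Klra-positive and at 609.7, 601, 704 and 819 CPM in Klra-negative cells, so that Csf3r-/- library 2 went the other way. Klra-positive cells were deeper (medians of 2555 to 3486 UMIs against 1867 to 2801), and in cells thinned to 1500 UMIs the differences were 3.17 for Tyrobp, 3.23 for Fcer1g, 0.24 for Hcst and 4.03 for Sh2d1b1. Thinned Klra-negative cells of Csf3r-/- library 1 held no Sh2d1b1 UMI, so the value of 4.03 is uncertain. Without the block for library, Fcer1g (adjusted p = 0.119) and Sh2d1b1 (adjusted p = 0.234) did not pass.

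Klra-positive cells held 24.7% to 80.0% of the UMIs of a library but most of the UMIs of the ITAM genes. They accounted for 92.7%, 94.0%, 90.3% and 73.2% of the Tyrobp UMIs and for 93.6%, 93.2%, 88.3% and 82.6% of the Fcer1g UMIs. Hcst followed the RNA itself, with 50.9%, 80.8%, 27.1% and 23.9% of its UMIs in those cells. Setting the share of UMIs from Klra-positive cells in every library to the Csf3r+/+ mean of 63.6%, while keeping the levels within each class, gave Tyrobp values of 219, 84.9, 167 and 111 CPM. Both Csf3r-/- values then lay between the 2 Csf3r+/+ values. For Fcer1g the same calculation gave 755, 419, 478 and 350.4 CPM, and the genotypes overlapped there too. Its mean was still lower in Csf3r-/- cells, at 414 CPM (SD 90.1) against 587 CPM (SD 238) in Csf3r+/+ cells. For Tyrobp the means were 139 CPM (SD 39.7) and 152 CPM (SD 95.1). Whether the share of Klra-positive cells accounts for the difference between genotypes was not tested.

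Within Klra-positive cells the log2 fold change of Csf3r-/- against Csf3r+/+ was -0.11 (SE 0.45, adjusted p = 0.996) for Tyrobp and -0.47 (SE 0.33, adjusted p = 0.854) for Fcer1g, where 1.56% of 9618 genes were called by edgeR in either direction and 1.08% were called lower. It was 0.19 (SE 0.19, adjusted p = 0.939) for Hcst and -1.0 (SE 0.95, adjusted p = 0.929) for Sh2d1b1. These standard errors leave room for differences in either direction. Leaving out Csf3r+/+ library 1 turned the sign for Tyrobp (0.74), Fcer1g (0.05) and Sh2d1b1 (1.16), and leaving out Csf3r-/- library 2 turned it for Tyrobp (0.12). Without Csf3r+/+ library 2, Sh2d1b1 reached -1.94 with an adjusted p of 0.0294.

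Within Klra-negative cells, Fcer1g had a log2 fold change of -1.88 (SE 0.50, adjusted p = 0.293), Sh2d1b1 of -2.33 (SE 0.64, adjusted p = 0.302), Tyrobp of -0.94 (SE 0.46, adjusted p = 0.542) and Hcst of 0.26 (SE 0.22, adjusted p = 0.713). None of the 4 was called, beside 0% of 10547 genes by edgeR, of which 1216 had an unadjusted p under 0.05, while DESeq2 called 341 genes and gave Fcer1g an adjusted p of 0.0145. Without Csf3r+/+ library 1, Fcer1g passed in edgeR at -2.42 (adjusted p = 0.0215). The difference of the genotype effect between the 2 classes was not called for any member, beside 0.144% of 10410 genes. It was 1.32 (SE 0.66, adjusted p = 0.802) for Fcer1g and 0.97 (SE 0.70, adjusted p = 0.881) for Tyrobp. Without Csf3r+/+ library 1 it was 2.45 for Fcer1g, with an adjusted p of 0.00161, so 1 library decided that result.

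Klra4 (Ly49D) and Klra8 (Ly49H) are the activating Ly49 genes that signal through DAP12. Cells with either gene were rare and numbered 81, 210, 9 and 16. In the Csf3r+/+ libraries Tyrobp stood at 949.8 and 216 CPM in them, against 279 and 111 CPM in the other Klra-positive cells. Fcer1g stood at 1548 and 599.6 CPM against 1114 and 562 CPM. The level of Tyrobp was thus higher in cells with an activating Ly49 gene in both Csf3r+/+ libraries, and that of Fcer1g in library 1. In Csf3r+/+ library 2 the counting intervals of Fcer1g overlapped and its share of thinned cells was 44.5% against 45.6%. The share of Tyrobp there was 14.8% (10.3% to 20.4%) against 11.7% (10.7% to 12.7%), so these intervals overlapped as well. In the 9 such cells of Csf3r-/- library 1, Tyrobp stood at 121 CPM against 259 CPM, so it went the other way. In the 16 such cells of Csf3r-/- library 2 it stood at 626 CPM against 154 CPM. These values are a description with no test. Tyrobp was present in Klra-positive cells without Klra4 or Klra8 UMIs too. Klra genes have near-identical copies, so the split between single Klra genes is uncertain.

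Cells were grouped by a UMI of 1 gene, and a cell could belong to several such classes. Among the classes with at least 20 cells in every library, Tyrobp was highest in cells with Ncr1, the NKp46 receptor, at a mean of 691 CPM (422 to 841 over 4 libraries, 641 cells). Next came cells with Fcgr3 (454 CPM), Cd244 (417 CPM), Klra6 (331 CPM) and Klrb1c (305 CPM). These neighbours did not differ beyond their spread, since the range over libraries was 263 to 793 CPM in Fcgr3-positive and 132 to 448 CPM in Klrb1c-positive cells. The low end held cells with Il17a (40.2 CPM) and Klra-negative cells (20.5 CPM). The highest Klra-negative library (29.7 CPM) lay below the lowest Klrb1c-positive library (132 CPM).

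Fcer1g followed the same order at its ends, with 1499.9 CPM (1038 to 2005) in Ncr1-positive, 1229 CPM in Fcgr3-positive and 1144 CPM in Cd244-positive cells. It stood at 97.4 CPM in Il17a-positive cells and 76.3 CPM in Klra-negative cells. Cells with Zbtb16, the transcription factor PLZF of innate-like T cells, had 162 CPM of Fcer1g and 51.4 CPM of Tyrobp, both below the mean of all kept cells (357 and 98.5 CPM). Hcst showed hardly any order, with class means from 609 to 756 CPM. Sh2d1b1 had its highest means in Fcgr3-positive (29.5 CPM), Ncr1-positive (28.3 CPM) and Cd244-positive cells (19.9 CPM). Only 1 library held more than 3 Sh2d1b1 UMIs in both Fcgr3-positive and Fcgr3-negative cells, so the first of these ranks is uncertain. For Ncr1 and Cd244 all 4 libraries did.

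**Figure D3:**
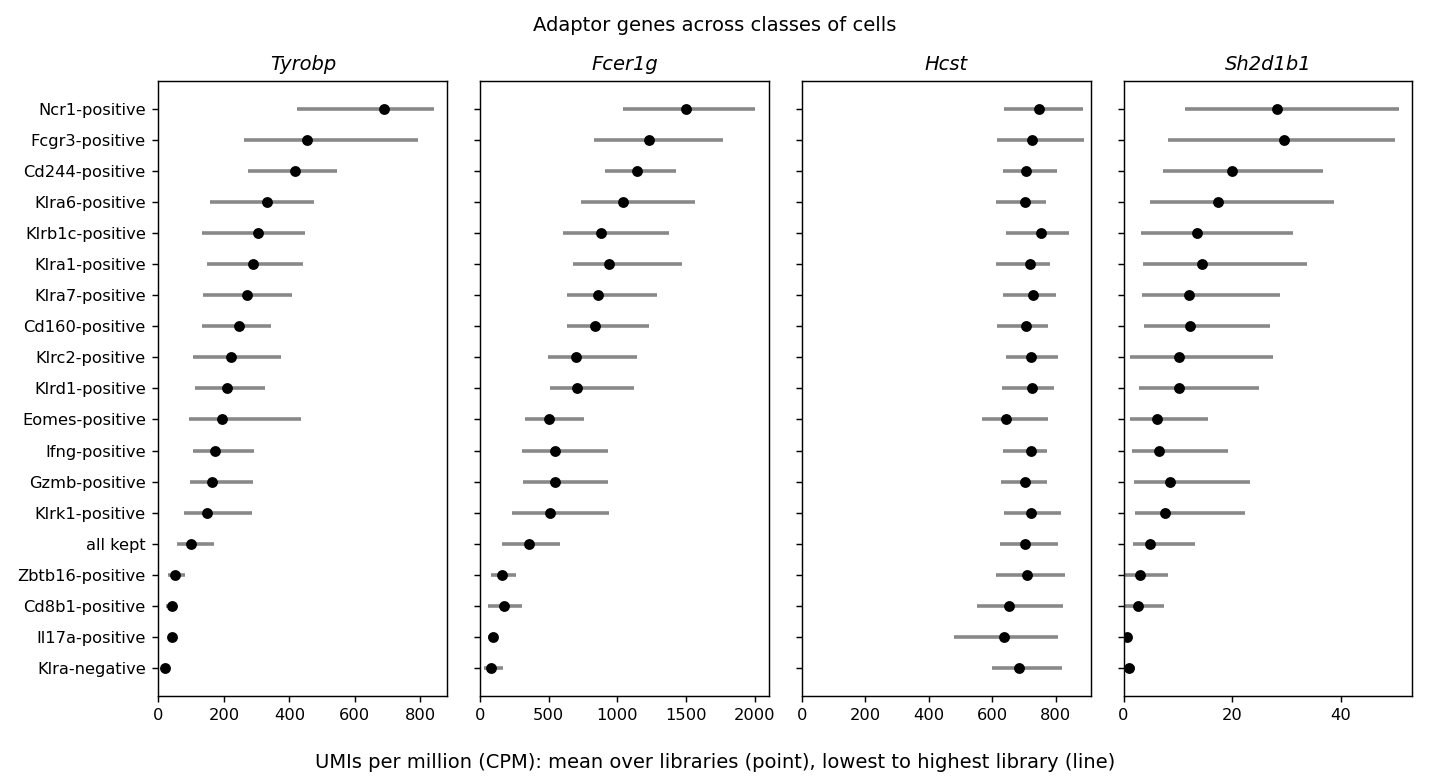
Mean level in CPM over libraries (points) and lowest to highest library (lines) of each gene in classes of cells defined by a UMI of the named gene, ordered from Ncr1-positive to Klra-negative. Tyrobp, Fcer1g and Sh2d1b1 were high in the top classes and low in the bottom ones but did not keep the same order between them, whereas Hcst stayed within a narrow band.

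NK1.1 (Klrb1c) and NKp46 (Ncr1) are receptors of the γ chain. In cells with a UMI of Klrb1c or Ncr1, 29.1%, 46.3%, 9.32% and 6.79% of the libraries, Fcer1g stood at 1389.8, 608, 834 and 758 CPM, against 178, 357, 111 and 96.7 CPM in cells with neither. Tyrobp stood at 444, 141, 356 and 299 CPM against 32.6, 55.6, 27.8 and 29.7 CPM. Both genes were higher with the receptors in every library, and the gap was smallest in Csf3r+/+ library 2. The log2 fold change was 3.13 (SE 0.39, adjusted p = 0.0114) for Tyrobp, 2.53 (SE 0.37, adjusted p = 0.014) for Fcer1g and 2.81 (SE 0.47, adjusted p = 0.0176) for Sh2d1b1, with 2.12% of 11147 genes called higher, 3.21% lower and 5.33% in either direction. The Sh2d1b1 value rested on 97, 37, 23 and 9 UMIs in cells with a receptor and on 28, 17, 5 and 13 UMIs in cells with neither. Hcst had 0.24 (SE 0.07, adjusted p = 0.0883). Without either Csf3r-/- library, none of Tyrobp, Fcer1g or Sh2d1b1 passed (adjusted p from 0.0657 to 0.146), and Sh2d1b1 did not pass without Csf3r+/+ library 1 (adjusted p = 0.0798), although each difference was at least 2.31 for Tyrobp and Fcer1g. Without Csf3r+/+ library 2, Hcst passed at 0.28 (adjusted p = 0.00882). Without the block for library, Tyrobp (adjusted p = 0.0776), Fcer1g and Sh2d1b1 (both 0.586) did not pass.

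NKG2D, encoded by Klrk1, is the receptor that pairs with DAP10, and in activated mouse NK cells also with DAP12. Klrk1-positive cells made up 48.6%, 80.2%, 42.4% and 49.8% of the libraries. Hcst stood at 688, 637, 753 and 816 CPM in them and at 621, 564, 701 and 795 CPM in Klrk1-negative cells. Hcst was higher in Klrk1-positive cells of each library, although the counting intervals overlapped in Csf3r-/- library 2. Its differences between Klra classes (0.22) and between Klrb1c or Ncr1 classes (0.24) were as large, though not called. For Klrk1 the log2 fold change of Hcst was 0.19 (SE 0.04, adjusted p = 0.0449), a rise of 1.14-fold. That call was lost when any 1 of the 4 libraries was left out (adjusted p from 0.0656 to 0.149), with DESeq2 (adjusted p = 0.135) and with the macrophage-positive cells kept (adjusted p = 0.0634). Tyrobp, at 287, 106, 123 and 77.5 CPM against 35.0, 61.9, 19.3 and 28.5 CPM, was higher by 2.04 (SE 0.34, adjusted p = 0.018). Fcer1g, at 941, 514, 347 and 234 CPM against 168, 324, 65.9 and 68.5 CPM, was higher by 1.90 (SE 0.27, adjusted p = 0.0144). Here 4.44% of 10744 genes were called higher and 5.93% in either direction. Without Csf3r-/- library 1, Tyrobp had an adjusted p of 0.104 and Fcer1g of 0.0981, and without Csf3r-/- library 2 both had 0.0503. Tyrobp did not pass with the macrophage-positive cells kept (adjusted p = 0.0735), and without the block for library none of Tyrobp, Fcer1g or Hcst passed (adjusted p = 0.999 for each). Sh2d1b1 had 1.80 (SE 0.55, adjusted p = 0.0978) and passed without Csf3r+/+ library 2 (2.60, adjusted p = 0.00828).

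Each thinned cell was scored for how many of 11 NK receptor features it held: the Klra family, Klrd1, Klrc1, Klrc2, Klrk1, Klrb1c, Ncr1, Klrg1, Cd160, Cd244 and Klre1. In cells with none of them, Fcer1g had a UMI in 1.81%, 5.66%, 1.5% and 3.53% of cells. In cells with 6 or more it had one in 80.9%, 63.0%, 83.7% and 64.9%. The share of Tyrobp went from 1.32%, 1.96%, 0.552% and 2.22% to 36.2%, 20.5%, 46.9% and 29.8%. Both genes were therefore found in more cells as receptors accumulated, in each of the 4 libraries. At 6 or more, Fcer1g was found in most cells and Tyrobp in a minority. Taken singly, Klrg1 did not go this way in every library. Klrg1-positive cells had 0.577 to 1.72 times the Fcer1g of Klrg1-negative cells over 4 libraries. Their Tyrobp was 0.917 to 2.96 times as high over 3 libraries, and their Hcst 0.746 to 0.928 times. With each other feature both genes were higher in every library. The level of Tyrobp increased at every step in 3 libraries, while in Csf3r-/- library 2 it was 342 CPM at 5 receptors and 327 CPM at 6 or more, the latter in 57 cells. Hcst went from 57.0%, 56.4%, 63.1% and 68.1% to 68.1%, 61.6%, 68.4% and 70.2%. Its level went from 620, 526, 707 and 809 CPM to 766, 676, 993 and 936 CPM and so ended higher in each library. Sh2d1b1 went from 0%, 0%, 0% and 0.0452% to 6.38%, 1.07%, 4.08% and 1.75%.

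**Figure D4:**
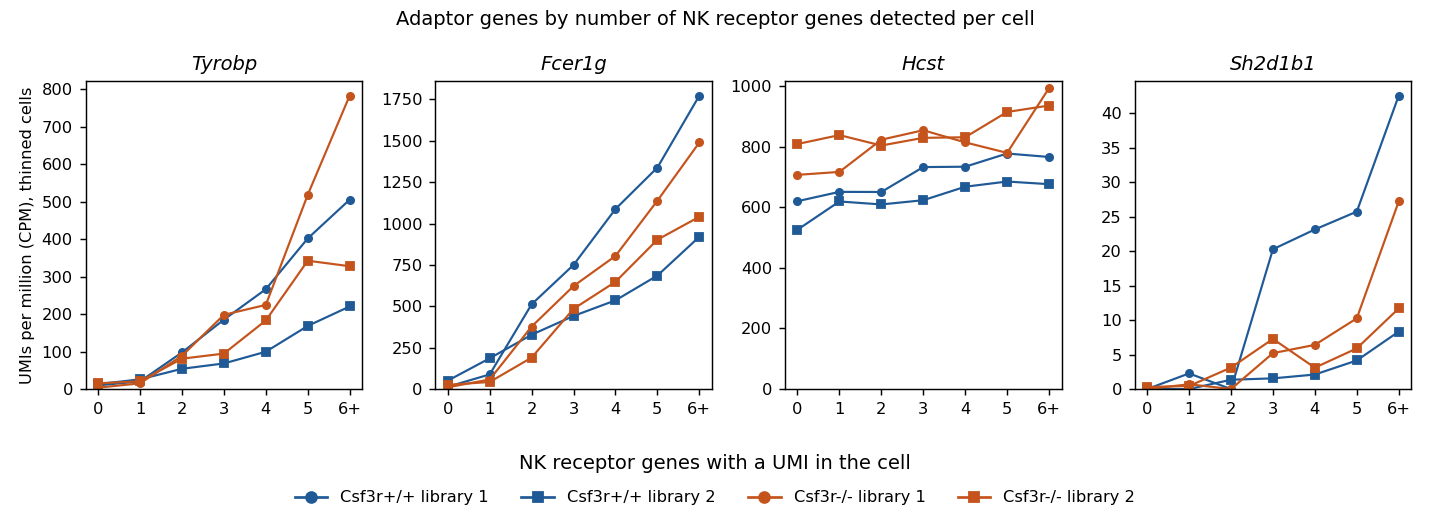
Level of each gene (CPM, linear axis) in cells thinned to 1500 UMIs, by the number of NK receptor features detected in the cell, from 0 to 6 or more, with 1 line per library. Fcer1g climbed to between 920.2 and 1773 CPM at 6 or more receptors and Tyrobp to between 220.2 and 782 CPM, with the 2 genotypes interleaved. Hcst started high, at 526 to 809 CPM with no receptor, and ended at 676 to 993 CPM.

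The same held along the Klra UMIs alone. Fcer1g had a UMI in 7.15%, 21.4%, 5.0% and 5.28% of thinned cells with no Klra UMI and in 79.7%, 62.0%, 74.4% and 70.5% of cells with 6 or more Klra UMIs. For Tyrobp the shares were 3.14%, 5.16%, 1.61% and 2.88% against 37.8%, 22.9%, 37.2% and 30.7%. Csf3r+/+ library 2 had the highest share of Fcer1g-positive cells without Klra UMIs and the lowest with 6 or more.

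Over the 17952 thinned cells, 878 held UMIs of both Tyrobp and Fcer1g, 461 of Tyrobp alone, 3216 of Fcer1g alone and 13397 of neither. Cells with both made up 8.91% and 6.24% of the Csf3r+/+ libraries and 3.6% and 2.14% of the Csf3r-/- libraries (exact permutation p = 0.333). Fcer1g was found in 79.9%, 64.3%, 69.9% and 45.4% of Tyrobp-positive cells and in 20.2%, 34.7%, 9.83% and 9.64% of Tyrobp-negative cells. In the other direction, Tyrobp was found in 33.2%, 16.6%, 27.9% and 18.9% of Fcer1g-positive cells. Most Tyrobp-positive cells thus held Fcer1g UMIs in 3 of the 4 libraries, whereas most Fcer1g-positive cells held no Tyrobp UMI at this depth, in all 4. The odds ratio of joint detection was 15.7, 3.40, 21.3 and 7.78.

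**Figure D5:**
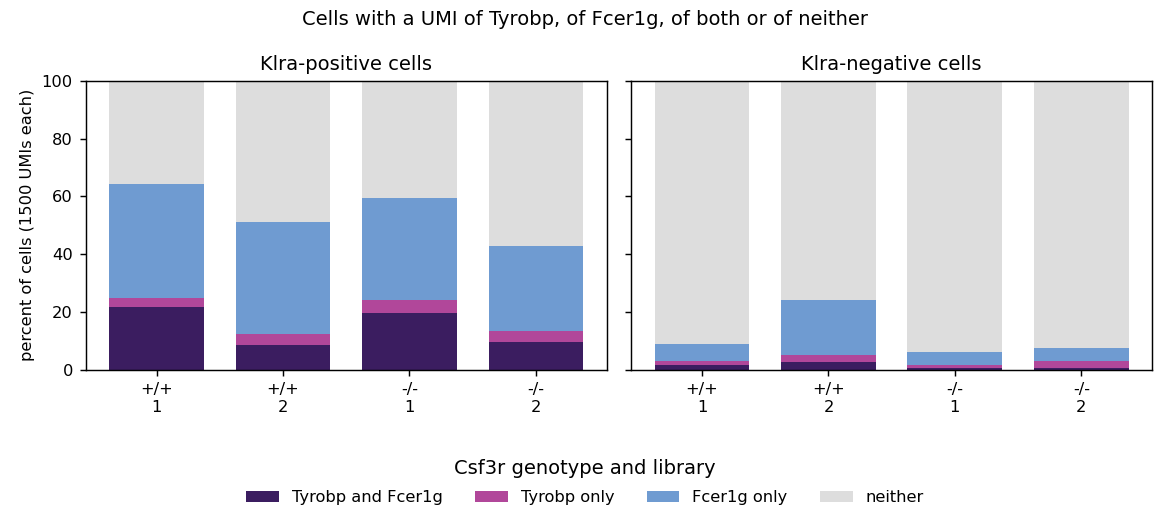
Percent of cells, thinned to 1500 UMIs, with a UMI of Tyrobp and Fcer1g, of only 1 of them or of neither, in Klra-positive (left) and Klra-negative cells (right) of each library. Among Klra-positive cells 2968 of 6312 held neither gene, and among Klra-negative cells 10429 of 11640.

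Klra UMIs were present in 88.8%, 85.0%, 85.6% and 78.6% of cells with both adaptors and in 18.5%, 52.1%, 7.50% and 11.8% of cells with neither. Among the 6312 thinned Klra-positive cells, 750 held both genes, 2348 Fcer1g alone and 246 Tyrobp alone, so that Ly49-positive cells without a Fcer1g UMI were common, within what 1500 UMIs per cell can show. Sh2d1b1 was detected in 83 thinned cells, and 76 of them also held Tyrobp or Fcer1g. As a description over the cells of each library, which share their library and their depth of 1500 UMIs, the Pearson correlation of log-scaled values was 0.208 to 0.464 between Tyrobp and Fcer1g. It was -0.011 to 0.035 between Tyrobp and Hcst, although the 2 genes are neighbours, and -0.012 to 0.061 between Fcer1g and Hcst. Fcer1g correlated at 0.296 to 0.614 with the summed Klra UMIs and at -0.108 to -0.037 with Cd3e, over 2717 to 5982 cells per library. Cells were selected for a UMI of Cd3e before thinning, so the values for Cd3e can follow the depth of the cells.

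The genes most like each member were ranked by the lowest, over the 4 libraries, of the log2 ratio of their level in cells with and without the member, among 5021 genes detected in at least 2% of the cells of every library. For Tyrobp the first was Fcer1g (1.22 to 3.28), followed by Irf8 (1.2 to 2.49), Klra1 (1.2 to 3.01), Klra6 (1.19 to 3.18) and Klra7 (1.09 to 3.30). For Fcer1g the first was Tyrobp (1.78 to 4.57), followed by Klra6, Klra1, Klra7 and Lat2. By this ranking each ITAM gene came first for the other, for Tyrobp by a narrow margin. Single libraries could place other genes higher. For Tyrobp, Klrb1f had 1.65 against 1.22 for Fcer1g in Csf3r+/+ library 2. For Fcer1g, Klra1 had 3.91 against 3.36 for Tyrobp in Csf3r-/- library 2. Sh2d1b1 was closest to Fcer1g (1.99 to 3.68), Tyrobp (1.86 to 5.08) and the T and NK cell surface gene Cd7 (1.76 to 4.20). Only 42, 20, 11 and 10 thinned cells of the libraries held a Sh2d1b1 UMI, so its ranking is uncertain. The first gene for Hcst was Trim11, whose lowest ratio was 0.28. At 1500 UMIs many cells without an Hcst UMI may still use the gene, so this split says little about which genes follow Hcst.

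The receptors that pair with the adaptors were counted in Klra-positive against Klra-negative cells from lists of known partners, beside 9.75% of all genes tested called higher, 9.64% called lower and a median log2 fold change of 0.008. Of 10 partners of the γ chain, 4 were tested and called higher: Ncr1 by 5.11, Klrb1a by 4.47, Klrb1c by 3.31 and Fcgr3 by 2.59. The other 6, mostly receptors of myeloid cells such as Fcgr1, did not pass the filter on low counts. That filter can be passed by counts in Klra-positive cells alone, here and in the lists that follow. Fcgr3, for example, stood at 4.31 to 10.9 CPM in Klra-positive and at 0.299 to 1.59 CPM in Klra-negative cells. The number of tested genes that were higher is therefore no measure of a whole list. Of 12 partners of DAP12, 5 were tested and all were higher, but Klra4 and Klra8 among them were used to split the cells. The remaining 3 were the NKG2 genes Klrc2 and Klrk1 (1.64, SE 0.31, adjusted p = 0.0117) and the CD94 gene Klrd1. Of 7 tested SLAM family and SAP genes, 5 were higher, among them Cd244 (3.06), Slamf7 (2.08) and Sh2d1a (0.82), which encodes SAP. Slamf1 (-1.40) and Cd84 (-0.51) were lower.

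Of 25 genes that act downstream of ITAMs, 22 were tested, 11 were higher in Klra-positive cells and 1 was lower, beside the 9.75% and 9.64% of all genes, with a median of 0.23. The summed level of the 25 genes was nevertheless lower in Klra-positive cells of each library. It was 2135, 2112, 2408 and 2321 CPM, against 2488, 2278, 2761 and 2844 CPM in Klra-negative cells. The largest differences were found for the Src family kinase Lyn (2.23), the phospholipase Plcg2 (2.16), the exchange factor Vav3 (1.56) and the adaptors Sh3bp2 (1.49) and Lat2 (1.44). Lat, the adaptor of the T cell receptor pathway, was lower (-0.95, SE 0.10, adjusted p = 0.00299), opposite to its relative Lat2. Zap70 (-0.11, adjusted p = 0.421) and Lcp2 (-0.08, adjusted p = 0.452) had differences close to 0 and were not called. Among the 4 CD3 and ζ chain genes, Cd247 (0.30) and Cd3d (0.30) were higher. These differences were far smaller than those of Tyrobp, Fcer1g and Sh2d1b1 but larger than the 0.22 of Hcst. Cd3e (-0.27) was lower, but each kept cell was required to hold a UMI of it. Its level can therefore follow depth, which differed between the classes, and is not read as a result.

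Macrophages use Tyrobp and Fcer1g strongly, and their RNA was therefore followed beside these results. The summed level of 19 macrophage genes was 379 to 577 CPM in Klra-positive cells and 456 to 829 CPM in Klra-negative cells. It was lower in the class with more Tyrobp and Fcer1g in each library, with 3 to 10 of the 19 genes at 0 in both classes. C1qa, C1qb and Lyz2 were at 0 through the filter on cells. Ctss (188 to 277 CPM over all kept cells of a library) and Cst3 (168 to 410 CPM) made up most of the sum, so its direction is largely theirs. In cells with both Tyrobp and Fcer1g it was 785, 406, 512 and 552 CPM, against 632, 426, 778 and 804 CPM in cells with neither, so it was higher with both genes in Csf3r+/+ library 1 and lower in the other 3 libraries. Single macrophage genes went both ways. Csf1r stood at 0 to 0.170 CPM in Klra-positive and at 0 to 1.13 CPM in Klra-negative cells. Cd68 stood at 1.07 to 2.43 against 0.454 to 1.75 CPM, Fcgr1 at 0.113 to 1.21 against 0 to 0.897 CPM, and C1qc at 2.0 to 9.85 against 1.38 to 8.94 CPM. Between genotypes the same sum was 612 and 395 CPM in Csf3r+/+ and 719.8 and 766 CPM in Csf3r-/- cells. The part of macrophage RNA in these results was not tested. NK cells cannot be told apart by markers alone from T cells with NK receptors, although the sort on TCRβ should have removed them. Their 10 marker genes summed to 2768 and 2940.0 CPM in Csf3r+/+ and to 1194 and 1214 CPM in Csf3r-/- cells and so moved with Tyrobp and Fcer1g, and their part in the result was not tested. All kept cells held Cd3e by selection. The summed level of the 8 T cell genes listed was 4627, 3395, 4966 and 4418 CPM in cells with both Tyrobp and Fcer1g, against 5480.2, 4059, 5941 and 5911 CPM in cells with neither. It was therefore lower in the cells with both genes in each library. Among these genes Cd3d stood at 1044 to 1389 CPM against 992 to 1124 CPM, Cd3e at 375 to 597 CPM against 518 to 851 CPM, and Lat at 217 to 471 CPM against 416 to 1054 CPM. Cells with both genes were deeper, with medians of 3375.5 to 4117.5 UMIs against 1896 to 2791 UMIs. The selection on Cd3e ties its level to depth, so Cd3e and its part in the sum are not read as a result.

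The 250 bases before the start of Fcer1g and of Hcst, from RefSeq (GRCm38.p6), are shown because the 2 genes behaved differently across receptor classes while both windows held the same ETS factor letters. RefSeq windows matched 3 of the 4 members by symbol, Fcer1g, Hcst and Sh2d1b1. The letters searched on both strands were ACAGGAAG for ETS factors, TGTGGT for Runx factors and AGGTGTGA for T-box factors. Capitals mark the ETS letters, and both genes are on the minus strand.
Fcer1g, chr1:171234350-171234599: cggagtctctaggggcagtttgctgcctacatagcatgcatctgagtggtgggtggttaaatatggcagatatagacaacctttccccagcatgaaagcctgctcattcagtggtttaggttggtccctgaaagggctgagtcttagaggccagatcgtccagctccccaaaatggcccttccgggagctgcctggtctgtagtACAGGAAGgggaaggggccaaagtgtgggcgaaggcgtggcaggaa
Hcst, chr7:30419855-30420104: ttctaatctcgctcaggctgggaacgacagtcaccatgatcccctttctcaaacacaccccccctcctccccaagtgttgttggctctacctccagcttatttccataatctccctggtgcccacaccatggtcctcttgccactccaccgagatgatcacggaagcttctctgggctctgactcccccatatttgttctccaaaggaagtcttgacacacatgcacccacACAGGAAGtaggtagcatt
The ETS letters were present in 2.9% of 32851 such windows, those of Runx in 14.0% and those of T-box factors in 1.12%. The Runx letters were found only before Sh2d1b1 and the T-box letters before none of the 3 genes. A match is a run of letters and says nothing about binding.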

How the data were processed

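UTCαβ in 2 samples from Csf3r+/+ and 2 from Csf3r-/- mice were sorted from sarcomas as leukocytes with TCRβ that lacked CD11b, TCRγδ, CD4 and CD8, and were sequenced with the 10x Genomics Chromium 3′ v2 chemistry, which counts molecules by UMI. The authors aligned the reads to mm10 with Cell Ranger and deposited 1 table of raw UMI counts per genotype, both libraries joined by the aggregate option, which can subsample reads to equalise depth. The submitters' processing notes also name bcl2fastq, R 3.4.4 and Seurat 2.3.4. Barcodes were filtered as given above, with no doublet caller. UMI counts were summed per library and class of at least 20 cells. Genes were tested with edgeR 4.0.16 (R 4.3.3, TMM factors, filterByExpr, quasi-likelihood F test, Benjamini-Hochberg, threshold 0.05), with the library as a block between classes and none between genotypes. DESeq2 1.42.0, other filters, normalizations and left-out libraries were alternatives. Python 3.11.15, numpy 2.4.6, scipy 1.17.1 and pandas 2.3.3 were used for shares, with cells thinned to 1500 UMIs. Intervals cover counting error only. A planned comparison of cells by transcription factor is not reported here.

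The scripts were tested on simulated counts with 200 changed genes, of which edgeR recovered 95% between genotypes (11102 genes), 95.5% between Klra classes (10186 genes) and 60.5% for their interaction (10184 genes). The median log2 fold change that edgeR estimated there was 1.98, 2.02 and 2.01. These shares describe the simulated counts and differences of about that size. What share of differences is recovered in the measured counts was not tested. The members and gene lists were chosen with earlier results of these data known. The genes named are the 4 members in every comparison, the listed partner and signalling genes, and the 5 genes most like each member. The libraries are separate biological samples by the labels, and p-values between genotypes measure the spread between them. With the library as a block, p-values instead rest on how much the difference between classes varied from library to library.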

Additional observations from a re-analysis of the deposited data

How the results depend on the processing

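Over 28 tests of members and 340 alternatives, 288 kept direction and side of the threshold, 26 lost the call, 15 gained it and 11 changed sign. Between genotypes, DESeq2 called 640 genes, edgeR without a filter on low counts 137, and edgeR without 1 library 0 to 1214, the highest without Csf3r+/+ library 1. Tyrobp passed with DESeq2 (log2 fold change -1.17), and Fcer1g with DESeq2 (-1.64) and without the filter (-1.63). With 1 library left out Tyrobp ranged from -1.44 to -0.84 and Fcer1g from -1.77 to -1.52. Between Klra classes 1098 genes were called in thinned cells and 336 to 2546 with 1 library left out, and Hcst passed with a further macrophage filter (0.24, adjusted p = 0.046) and without Csf3r+/+ library 2 (0.24), within a range of 0.17 to 0.27. Within Klra-positive cells the count was 337 with DESeq2, 651 without the filter, 71 after thinning and 25 to 387 with 1 library left out. Within Klra-negative cells it was 341 with DESeq2, 151 without the filter and 0 to 591 with 1 library left out. The interaction was called for 31 genes with DESeq2, 70 without the filter, 4 after thinning, 0 with Klra-positive set at 2 UMIs, and 0 to 194 with 1 library left out. For Klrk1 classes 1346 genes were called without the filter and 1 to 501 with 1 library left out, and for Klrb1c or Ncr1 classes 1329 and 2 to 1876. The causes of these changes were not tested.

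The labels number the replicates alike in both genotypes, but the number behind a barcode, which separates the libraries, is tied to none of these samples, so no pairing is known. The deviations of libraries with the same barcode number correlated at 0.39 over 5842 genes. With the barcode number as the replicate block between genotypes, 445 genes were called, Tyrobp passed at -1.14 (adjusted p = 0.0426) and Fcer1g at -1.64 (adjusted p = 0.0197), and 774 genes were called within Klra-positive cells. Without the block for library, 9 genes were called between Klra classes, with Fcer1g at 3.35 (adjusted p = 0.119) and Sh2d1b1 at 3.52 (adjusted p = 0.234), and 1 each for the Klrk1 and the Klrb1c or Ncr1 classes.

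Signs changed only for differences that were not called. Within Klra-positive cells the Tyrobp difference was 0.023 with the macrophage-positive cells kept, 0.094 after thinning, 0.014 with the replicate block, and -0.66 to 0.74 with 1 library left out, that of Fcer1g -0.86 to 0.05 and that of Sh2d1b1 -1.94 to 1.16. Within Klra-negative cells Tyrobp was 0.34 with the macrophage-positive cells kept. The interaction ranged from -0.016 to 1.91 for Tyrobp and from -0.22 to 0.032 for Hcst with 1 library left out. Where 1 library was left in a group, it was assumed to vary like the other group. Csf3r-/- cells were shallower, and 1370 of them against 200 Csf3r+/+ cells were too shallow to thin. Sh2d1b1, with 22 to 125 UMIs per library, allows only large differences to be seen.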

Other observations

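Tyrobp and Fcer1g were also read in barcodes outside the kept cells. In 118 barcodes with macrophage genes, Tyrobp stood at 2841 CPM, Fcer1g at 3968 CPM and Sh2d1b1 at 34.5 CPM, while Hcst stood at 189.8 CPM, below its 695 CPM over all kept cells. In the 1820 Cd3e-positive cells that were removed for a UMI of C1qa, C1qb or Lyz2, Tyrobp stood at 289 CPM and Fcer1g at 559 CPM, against 94.3 and 363 CPM over all kept cells, and Hcst at 685 CPM. These removals took 2.22%, 5.25%, 4.74% and 17.2% of the otherwise eligible cells of the libraries, most in Csf3r-/- library 2.

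Cells with Foxp3, the regulatory T cell factor, had at least 20 cells in 3 libraries and a mean of 43.9 CPM of Tyrobp and 141 CPM of Fcer1g. Cells with Cd8b1, which the sort should have removed at the protein level, had 41.3 CPM of Tyrobp and 171 CPM of Fcer1g over 4 libraries. Eomes-positive cells had 195 CPM of Tyrobp, with a range of 94.7 to 437 CPM, and 505 CPM of Fcer1g. Cells with Gzmb had 165 CPM of Tyrobp and 547 CPM of Fcer1g, and cells with Ifng 173 and 545 CPM, close to each other and above the means of all kept cells. In Csf3r+/+ library 2, however, Gzmb-positive cells had 0.97 times the Tyrobp and 0.86 times the Fcer1g of Gzmb-negative cells, and Ifng-positive cells had 0.96 times the Fcer1g of Ifng-negative cells. These are levels over overlapping classes of the same libraries, with no test.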
